A study of Mus musculus with 8 samples.

Results

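The response of wild-type (WT) kidney to ischemic injury was read from 4 of the 8 libraries of a mouse RNA-sequencing series, 2 from non-injured kidney (WT-NI 1 and WT-NI 2) and 2 from kidney taken 3 days after ischemia/reperfusion (WT-I/R 3D, pools 1 and 2). All mice were female and of the mixed strain C57BL/6 x 129S4/SvJae, and the WT mice were Tet1+/+ littermates of a Tet1 knockout (KO) line; their age was not given in the sources used here. In the injured mice a clamp closed the vessels of the left kidney for 45 min and was then released, and whole kidneys were processed. RNA of 3 mice was combined for each library, so a group held 2 pools, and every p here rests on the spread among such pools. The sources used here do not say whether the non-injured kidneys were the unclamped partners of injured kidneys or came from unoperated mice, so effects of surgery or of a damaged partner kidney cannot be told apart from the base level. Of 55919 genes in the table, 15650 reached 1 FPKM (read fragments scaled by gene length and by a factor for each library) in at least 2 of the 8 libraries and were tested. A gene scarce in WT-NI could pass this filter through other libraries alone, and such a gene could rise but hardly fall. This bears on the counts of rises and falls in every list of scarce genes below.

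Ischemia/reperfusion injures above all the epithelium of the proximal tubule, which recovers most of the filtered glucose, phosphate and amino acids and burns fatty acids to pay for that transport. Surviving tubule cells lose their specialised transcripts, switch on injury genes such as Havcr1 (kidney injury molecule 1) and Lcn2 (neutrophil gelatinase-associated lipocalin), re-enter the cell cycle and release chemokines. Monocytes and macrophages enter the tissue in the first days, and pericytes and fibroblasts begin to lay down matrix.

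The WT libraries held between 15908001 and 17485755 reads recovered from the deposited values, and all 8 held between 13961281 and 18480858. Mitochondrial genes took 7.70% and 7.44% of the reads in WT-NI 1 and 2, and 6.82% and 5.62% in WT-I/R 3D 1 and 2. Among the 4 pairs of pools the library KO-NI 1 stood apart from its partner, with 1804 genes more than 2-fold apart against 760 between the WT-NI pools and 723 between the WT-I/R 3D pools, and it enters the shared estimate of the spread. The kidney markers Umod, Slc34a1, Nphs1 and Aqp2 were present in every WT library. Tet1 itself lay at 0.378 and 0.323 FPKM in WT-NI and at 0.243 and 0.313 FPKM in WT-I/R 3D, below the filter, and the libraries labelled KO held 0.158 to 0.551 FPKM of reads counted over the whole gene, which therefore did not separate the genotypes.

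After injury 1393 genes were called higher, 8.9% of those tested, and 1322 were called lower, 8.45% of those tested (limma on log2(FPKM + 0.1), with a Benjamini-Hochberg adjusted p below 0.05 and a change of more than 0.5 on the log2 scale required). The rises and the falls were of different kinds. Genes that rose were mostly scarce in the non-injured kidney, with a median of 1.89 FPKM that became 5.46 FPKM, and 465 of them were below 1 FPKM in both WT-NI pools. Genes that fell were mostly abundant, with a median of 18.4 FPKM that became 10.04 FPKM, and only 54 of them were below 1 FPKM in both WT-I/R 3D pools. The median change of a called gene was 1.38 on the log2 scale among rises and -0.83 among falls, and 381 rises but 28 falls exceeded 2 on that scale. With the 29 risen genes that were listed at 0 in both WT-NI pools set to the bound that 3 reads allow, the median of the rises was 1.37.

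In terms of transcript share, the 1393 risen genes made up 4.30% and 4.47% of all FPKM in the WT-NI pools and 10.6% and 12.5% in the WT-I/R 3D pools. The 1322 fallen genes made up 18.1% and 18.05% in the WT-NI pools and 10.6% and 10.5% in the WT-I/R 3D pools. Of the 50 most abundant genes of the non-injured kidney, 13 were called lower and 1, Spp1, was called higher. This balance depended on the scaling. As TPM (each library divided by its own sum of FPKM) the median of all genes moved from -0.01 to 0.17, and the call counts became 1811 higher and 717 lower. The share of rises among all calls was then 71.6% in place of 51.3%. Scaled by the read totals, an alternative added after the data were seen, the median was 0.23 and the counts were 2365 higher and 623 lower, a share of 79.2%. Leaving out 1 WT pool left a single library in its group, assumed to vary like the other groups. The counts then fell to 295 higher and 76 lower without WT-NI 1, 382 and 101 without WT-NI 2, 480 and 231 without WT-I/R 3D 1, and 205 and 82 without WT-I/R 3D 2. All 4 of these fits called 184 of the rises and 49 of the falls again.

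**Figure D1:**
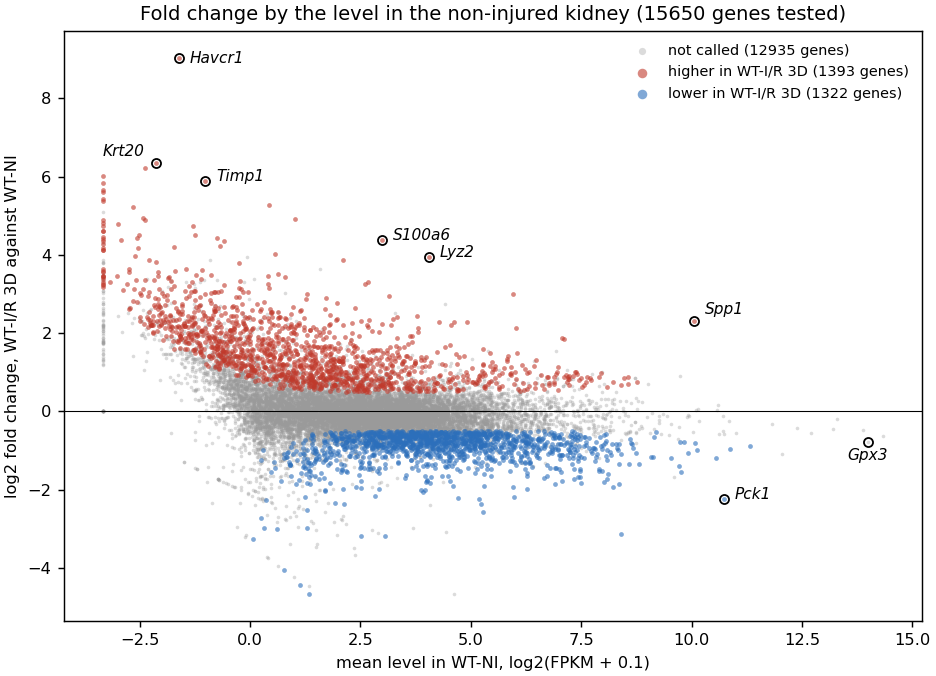
Each point is one of the 15650 genes tested, with its mean level in the 2 WT-NI pools on the x axis, in log2(FPKM + 0.1), and its log2 fold change in WT-I/R 3D on the y axis. The 1393 genes called higher (red) reach a log2 fold change of 9.03 at Havcr1 and lie mostly at low levels, whereas the 1322 called lower (blue) lie mostly at high levels and close to the line of no change.

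The genes with the largest rises included known markers of injured epithelium. Havcr1, whose product is a phosphatidylserine receptor on injured proximal tubule cells, was at 0.271 and 0.185 FPKM in WT-NI and at 130 and 224 FPKM in WT-I/R 3D, a log2 fold change of 9.03 ± 0.37 (SE) with an adjusted p of 0.000755. Krt20, an intermediate filament keratin, went from 0.180 and 0.0741 FPKM to 14 and 22.8 FPKM (6.35 ± 0.34, adjusted p = 0.00185). Timp1, an inhibitor of metalloproteinases, went from 0.548 and 0.241 FPKM to 23.3 and 33.3 FPKM (5.89 ± 0.40, adjusted p = 0.00185). For each of these genes the injured pools were far above the non-injured ones, and WT-I/R 3D 2 was above WT-I/R 3D 1.

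Lcn2, an iron-binding lipocalin, rose from 1.43 and 1.06 FPKM to 42.9 and 62.0 FPKM (5.28 ± 0.37). Cxcl1, a neutrophil-attracting chemokine, rose from 0.111 and 0.0761 FPKM to 9.33 and 21.9 FPKM (6.22 ± 0.37). The cornified envelope gene Sprr1a rose from 2.59 and 1.24 FPKM to 45.2 and 73.3 FPKM (4.92 ± 0.50), and its relative Sprr2f, which has near-identical neighbours, from 0 and 0.117 FPKM to 4.39 and 6.77 FPKM. The cytokine gene Il1f6 was listed at 0 in both WT-NI pools and at 4.89 and 8.36 FPKM in WT-I/R 3D, at least 55.3-fold above the level that 3 reads over both WT-NI pools would give. The serpin gene Serpina3n rose from 0.270 and 0.346 FPKM to 10.7 and 10.6 FPKM (4.73 ± 0.56). The calls of these genes held with any 1 WT pool left out.

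Among called genes the largest gain in transcript mass was that of Spp1, osteopontin, a secreted matrix and cytokine-like protein that the distal nephron makes also without injury. It was at 1037 and 1091 FPKM in WT-NI and at 4177 and 6703 FPKM in WT-I/R 3D (2.31 ± 0.26, adjusted p = 0.00415). Mgp, matrix Gla protein, went from 60.9 and 63.3 FPKM to 486 and 501 FPKM (2.99 ± 0.35). The actin-binding Tmsb4x went from 128 and 140 FPKM to 492 and 483 FPKM (1.86 ± 0.13), and the calcium-binding S100a11 from 131 and 147 FPKM to 454 and 544 FPKM (1.84 ± 0.17). B2m, Tmem176b and the ribosomal genes Rplp0 and Rps3a1 complete the 8 largest gains among called genes, each with a log2 fold change between 0.76 and 0.99.

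Among called genes the largest loss in transcript mass was that of Pck1, the gluconeogenic phosphoenolpyruvate carboxykinase. It fell from 1713 and 1688 FPKM to 395 and 329 FPKM, a log2 fold change of -2.24 ± 0.32 with an adjusted p of 0.00772. Atp1b1, a subunit of the sodium pump of the tubule, fell from 1077 and 1154 FPKM to 566 and 566 FPKM (-0.98 ± 0.18). Slc34a1, Ass1, Fbp1 and Tcn2 were also among the largest losses of called genes. The calls of Atp1b1, Slc34a1 and Tcn2 were lost with any 1 WT pool left out, and those of Pck1, Ass1 and Fbp1 held in 1 of those 4 fits.

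By size of fold change the largest falls were of several kinds. Hipk2, a kinase that regulates transcription and p53, was at 15.1 and 13.8 FPKM in WT-NI and at 3.49 and 3.56 FPKM in WT-I/R 3D (-2.01 ± 0.13, adjusted p = 0.00185), and Ces2b, a carboxylesterase, fell from 5.84 and 5.36 FPKM to 1.53 and 1.21 FPKM (-1.96 ± 0.23). Both calls held with any 1 WT pool left out. Slc16a14, of the monocarboxylate carrier family, fell from 34.9 and 40.4 FPKM to 8.83 and 5.89 FPKM (-2.36 ± 0.47) and the cytochrome P450 gene Cyp2a5 from 56.4 and 68.6 FPKM to 13.7 and 13.3 FPKM (-2.20 ± 0.36). Ly6f fell from 6.81 and 7.24 FPKM to 1.88 and 1.17 FPKM (-2.17 ± 0.33) and Ciart, a repressor of the circadian clock, from 14.6 and 16.5 FPKM to 4.22 and 3.36 FPKM (-2.02 ± 0.43). The calls of Slc16a14, Cyp2a5 and Ciart were lost with any 1 WT pool left out, and that of Ly6f in 3 of those 4 fits.

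**Figure D2:**
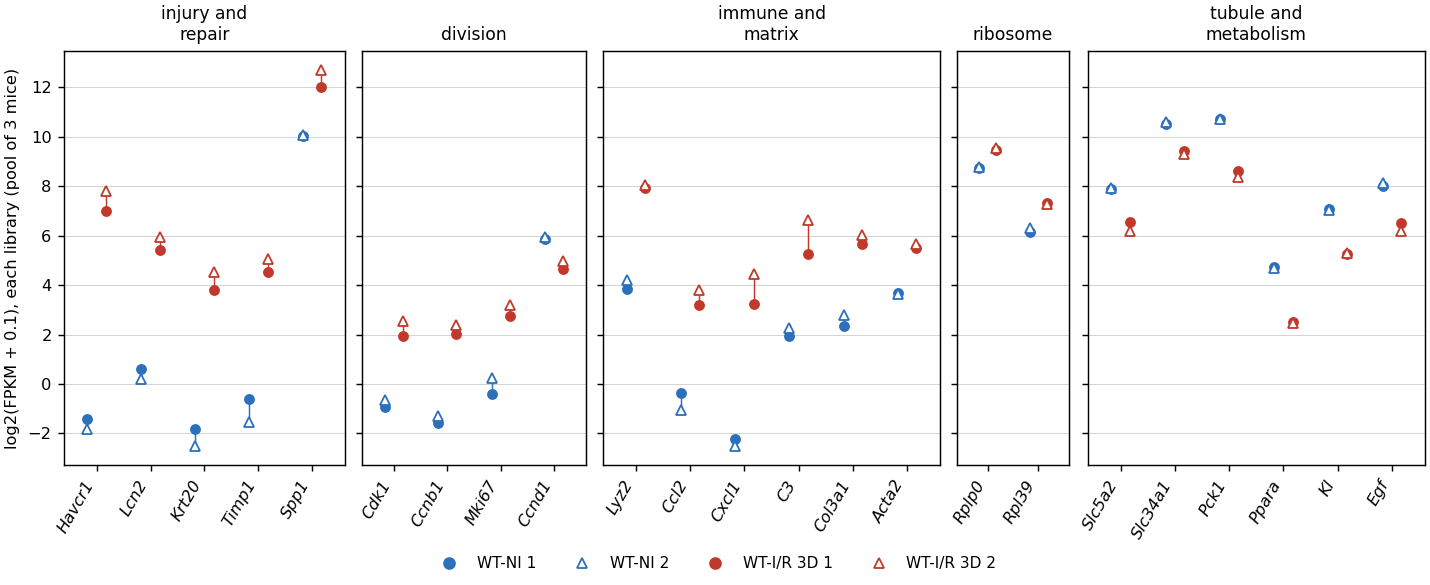
Level of 23 genes in each of the 4 WT libraries, in log2(FPKM + 0.1), with non-injured pools in blue and injured pools in red (circles, first pool; triangles, second pool). For most of these genes the pools of a group lie close together beside the distance between the groups, and in the panel of injury genes the second injured pool is above the first for all 5 genes.

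Sequences upstream of the start sites are shown for 4 of these genes, each chosen because it stands for a group described here and its window holds a short motif of a fixed list. Among 10549 tested genes with a RefSeq promoter window (build GRCm38.p6, matched by symbol, first listed start), the 250 bases before the start were searched on both strands. The lines give Cdk1 with the cell cycle homology region TTTGAA and the NF-Y box CCAAT in capitals (chr10:69352913-69353162, minus strand), Sprr1a with the AP-1 site TGANTCA (chr3:92485882-92486131, minus strand), Cxcl1 with the NF-kappa B site GGANTTTCC (chr5:90890995-90891244, plus strand) and Slc34a1 with the partial HNF1 site GTTAAT (chr13:55399398-55399647, plus strand).
Cdk1: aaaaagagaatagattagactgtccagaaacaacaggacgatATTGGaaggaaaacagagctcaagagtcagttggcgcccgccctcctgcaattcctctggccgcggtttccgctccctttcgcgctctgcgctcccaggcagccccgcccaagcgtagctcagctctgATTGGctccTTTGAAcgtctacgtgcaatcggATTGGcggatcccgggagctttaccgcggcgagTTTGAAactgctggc
Sprr1a: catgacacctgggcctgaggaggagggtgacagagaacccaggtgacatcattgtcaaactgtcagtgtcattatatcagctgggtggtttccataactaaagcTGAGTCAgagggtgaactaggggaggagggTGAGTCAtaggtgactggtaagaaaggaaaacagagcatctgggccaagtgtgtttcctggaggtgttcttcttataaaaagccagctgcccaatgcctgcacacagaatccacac
Cxcl1: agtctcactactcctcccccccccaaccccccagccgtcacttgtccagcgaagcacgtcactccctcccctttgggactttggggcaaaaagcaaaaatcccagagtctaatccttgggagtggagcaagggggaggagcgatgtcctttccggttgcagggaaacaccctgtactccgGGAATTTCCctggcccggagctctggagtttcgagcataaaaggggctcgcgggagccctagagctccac
Slc34a1: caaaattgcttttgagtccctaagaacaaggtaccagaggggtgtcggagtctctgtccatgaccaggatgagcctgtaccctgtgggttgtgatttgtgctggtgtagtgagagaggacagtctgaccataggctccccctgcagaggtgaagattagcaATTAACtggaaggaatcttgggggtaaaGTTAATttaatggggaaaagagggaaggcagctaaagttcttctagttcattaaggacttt
The NF-Y box was in 36.0% of all 10549 windows, in 30 of 39 windows of the mitosis list (76.9%) and in 37.0% of the windows of risen genes. It was also in 60% of the G1/S windows, 47.4% of the hypoxia windows and 5 of 9 windows of the first proximal segments (55.6%), whose genes mostly fell. In the other lists searched the share was 27.4% to 34.8%. The cell cycle homology region was in 10.8% of all windows and in 28.2% of the mitosis windows, but also in 24% of the chemokine windows and 24% of the general proximal tubule windows, and both motifs together were in 4.09% of all windows and 25.6% of the mitosis windows. The AP-1 site was in 4.55% of all windows, in 8.2% of the windows of risen genes and in 3.77% of those of fallen genes. By list it was in 30.8% of the interferon windows and 19.2% of the injury and repair windows, but in 0 of 39 mitosis windows. The NF-kappa B site was in 1.11% of all windows, in 12.0% of the chemokine windows and in 11.5% of the interferon windows. The partial HNF1 site was in 4.24% of all windows and in 32.0% of the windows of the general proximal tubule list. It was also in 19.2% of the windows of the injury and repair list, whose genes mostly rose. In the first proximal segments, the list that holds Slc34a1, it was in 1 of 9 windows (11.1%). These are matches of letters, and no binding was measured.

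Tubule transcripts fell along much of the nephron. In the first segments of the proximal tubule 11 of 12 marker genes fell and none rose, with a median log2 fold change of -1.35. Slc6a19, the main apical carrier of neutral amino acids, was at 125 and 116 FPKM in WT-NI and at 35.4 and 30.7 FPKM in WT-I/R 3D (-1.87 ± 0.26, adjusted p = 0.00669). Slc5a2, the apical glucose carrier, went from 236 and 241 FPKM to 94.6 and 73.6 FPKM (-1.51 ± 0.20), and the phosphate carrier Slc34a3 from 56.9 and 61.5 FPKM to 23.2 and 18.2 FPKM (-1.52 ± 0.21). The second phosphate carrier Slc34a1 fell from 1468 and 1538 FPKM to 698 and 628 FPKM (-1.18 ± 0.22), and only the scaffold gene Pdzk1 missed the threshold, at 191 and 200 FPKM against 94.7 and 97.4 FPKM (adjusted p = 0.0618). Without WT-I/R 3D 2 no member of this list passed, against 1, 3 and 5 members without WT-NI 1, WT-NI 2 and WT-I/R 3D 1, and the median lay between -1.52 and -1.22 in these fits.

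Markers of the last proximal segment moved less evenly. Of 15, 3 fell and 1 rose, and the median was -0.52. Slc22a7, an organic anion carrier, fell from 182 and 173 FPKM to 80.1 and 47.3 FPKM (-1.53 ± 0.35), and the monocarboxylate carrier Slc16a9 from 38.8 and 44.0 FPKM to 14.8 and 17.1 FPKM (-1.37 ± 0.20). Slc6a18, a glycine carrier, was at 277 and 270 FPKM and at 272 and 246 FPKM, so that its groups overlapped. Slc7a13, a carrier of acidic amino acids and cystine, was the member that rose, from 0.877 and 0.833 FPKM to 3.42 and 7.10 FPKM (2.40 ± 0.40, adjusted p = 0.0108). The difference between the lists of first and last segments was not tested. Among 30 markers common to the proximal tubule, 17 fell and none rose, with a median of -0.84, and both injured pools were below both non-injured pools for all 30, against 37.6% of all genes tested. No member of this list passed without WT-NI 1, WT-NI 2 or WT-I/R 3D 2, and 3 passed without WT-I/R 3D 1. The 3 falls of the last segment were likewise lost with any 1 WT pool left out.

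Farther along, in the distal convoluted and connecting tubule, 7 of 13 markers fell and none rose, with a median of -1.14. Slc8a1, the sodium-calcium exchanger, fell from 16.2 and 16.0 FPKM to 4.18 and 5.06 FPKM (-1.78 ± 0.25, adjusted p = 0.00679). Trpm6, the magnesium channel, fell from 5.26 and 5.95 FPKM to 2.02 and 2.22 FPKM (-1.36 ± 0.17), a call that held with any 1 WT pool left out, and the calcium channel Trpv5 from 11.1 and 12.1 FPKM to 4.56 and 5.99 FPKM (-1.14 ± 0.19). S100g, the calcium-binding calbindin of small size, was at 1585 and 1826 FPKM against 1191 and 1070 FPKM and missed the threshold (adjusted p = 0.253). With 1 WT pool left out, 1 to 3 of the 13 passed.

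The thick ascending limb gave few calls, with 1 of 15 markers lower, 1 higher and a median of -0.25. Each count was 6.67% of the list, against 8.45% of all genes lower and 8.9% higher. Umod, uromodulin, the most abundant urinary protein, was at 1696 and 1964 FPKM in WT-NI and at 1452 and 1616 FPKM in WT-I/R 3D (-0.25 ± 0.18, adjusted p = 0.377). The carrier Slc12a1 likewise missed the threshold, at 361 and 412 FPKM against 307 and 240 FPKM. Egf, a growth factor made mainly by this segment and the distal convoluted tubule, fell from 258 and 284 FPKM to 90.5 and 72.8 FPKM (-1.73 ± 0.39, adjusted p = 0.0253), and the tight junction gene Cldn19 rose from 12.3 and 12.5 FPKM to 18.4 and 18.3 FPKM (0.56 ± 0.16, adjusted p = 0.0494). Neither call held with a WT pool left out.

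In the collecting duct, 5 of 12 principal cell markers fell and none rose (median -0.35), and 5 of 14 intercalated cell markers fell and none rose (median -0.74). The sodium channel subunit Scnn1g fell from 26.8 and 28.1 FPKM to 14.3 and 12.3 FPKM (-1.04 ± 0.16), and the basolateral water channel Aqp3 from 89.6 and 96.5 FPKM to 56.8 and 38.2 FPKM (-1.0 ± 0.19). The vasopressin-regulated water channel Aqp2 was at 276 and 327 FPKM against 444 and 266 FPKM, with the injured pools on either side of the others. Slc26a4, pendrin, an anion exchanger of intercalated cells, fell from 41.3 and 50.5 FPKM to 19.5 and 18.3 FPKM (-1.27 ± 0.28). No intercalated cell marker passed with any 1 WT pool left out, and of the principal cell markers 2 passed without WT-I/R 3D 1 and 0 passed in the other 3 fits.

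Of 13 podocyte markers 11 had both injured pools below both non-injured pools, against 37.6% of all genes tested, and the median was -0.51. Called lower were 2 of them, Nphs1 (nephrin; 7.22 and 7.44 FPKM against 4.41 and 3.44 FPKM) and Magi2. One marker rose, Tcf21, a transcription factor also found in stromal cells (9.39 and 9.12 FPKM against 21.9 and 20.6 FPKM; 1.19 ± 0.16). Both falls were lost with any 1 WT pool left out, and the rise of Tcf21 held in 1 of those 4 fits. Of 16 endothelial markers 2 fell, 12.5% against 8.45% of all genes, both receptors for vascular endothelial growth factor. Kdr fell from 13 and 12.2 FPKM to 5.34 and 3.89 FPKM (-1.45 ± 0.17, adjusted p = 0.0045), a call that held with any 1 WT pool left out, and Flt1 from 7.15 and 7.09 FPKM to 4.38 and 3.36 FPKM (-0.87 ± 0.15). The capillary markers Plvap and Eng did not pass, at 110 and 107 FPKM against 125 and 106 FPKM and at 37.9 and 41.6 FPKM against 45.6 and 39.6 FPKM, with overlapping pools.

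**Figure D3:**
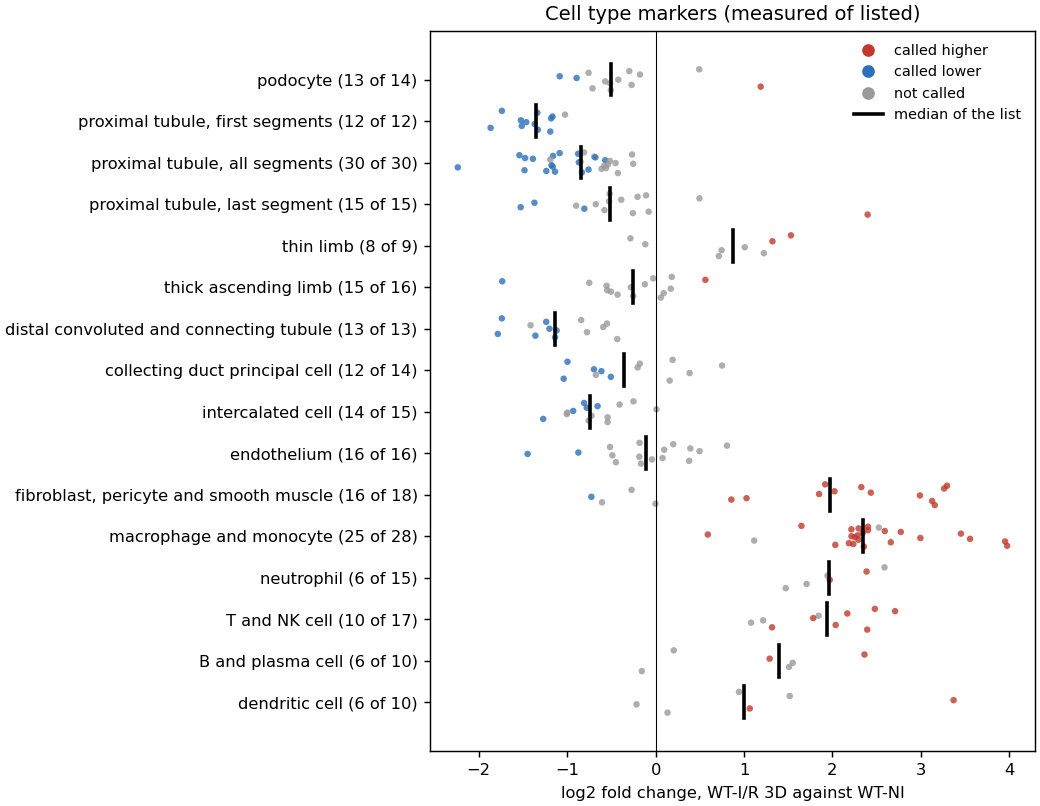
Log2 fold change of each measured marker gene in WT-I/R 3D against WT-NI, in rows by cell type, with the number measured of the number listed beside each name (red, called higher; blue, called lower; grey, not called; black bar, median of the list). The median is -1.35 in the first proximal segments, -0.25 in the thick ascending limb and -1.14 in the distal convoluted and connecting tubule, and the macrophage and fibroblast lists lie to the right at 2.34 and 1.97.

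The same bulk tissue held more transcripts of immune cells, so a smaller share of tubule cells and less RNA per tubule cell cannot be told apart in these values. The summed FPKM of the 28 macrophage and monocyte markers was 145 and 163 in the WT-NI pools and 838 and 942 in the WT-I/R 3D pools, and their part in the falls of tubule genes was not tested. Of 25 that could be measured, 23 rose and none fell, with a median of 2.34. All 25 had both injured pools above both non-injured pools, against 34.5% of all genes tested. Lyz2, lysozyme, went from 14.3 and 18.6 FPKM to 241 and 267 FPKM (3.95 ± 0.24), the Fc receptor Fcgr3 from 2.28 and 2.38 FPKM to 20.1 and 18.5 FPKM (3.00 ± 0.17), and the complement component C1qb from 22.5 and 24.3 FPKM to 102 and 117 FPKM (2.21 ± 0.22). The monocyte receptor Ccr2 rose from 0.689 and 0.739 FPKM to 4.51 and 5.12 FPKM (2.59 ± 0.21) and the mannose receptor Mrc1 from 0.699 and 0.706 FPKM to 4.40 and 5.62 FPKM (2.66 ± 0.19). Between 12 and 18 members still passed with 1 WT pool left out, the fewest without WT-I/R 3D 2.

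Other leukocytes gave weaker signals. Neutrophil markers were near the limit of measurement: of 15, only 6 passed the filter, and of the defining genes Mpo and Elane were listed at 0 in all 4 WT libraries and Ly6g, a surface antigen, in 3. Csf3r, the receptor for granulocyte colony-stimulating factor, rose from 0.463 and 0.415 FPKM to 2.38 and 3.10 FPKM (2.39 ± 0.34) and Mmp9 from 0.373 and 0.282 FPKM to 0.915 and 2.64 FPKM, and neither call held in every fit without a WT pool (0 calls without WT-NI 1 or WT-I/R 3D 2), while S100a8 (0.601 and 1.95 FPKM against 3.52 and 4.15 FPKM) and S100a9 missed the threshold. Of 17 markers of T and natural killer cells 10 were measured and 7 rose, with a median of 1.94, and 2 or 3 of these passed with 1 WT pool left out. The T cell receptor constant gene Trbc2 rose from 0.905 and 1.55 FPKM to 6.98 and 6.35 FPKM (2.39 ± 0.26) and the chemokine gene Ccl5 from 1.52 and 2.08 FPKM to 9.06 and 11.9 FPKM (2.48 ± 0.23), and both calls held with any 1 WT pool left out. Among B and plasma cell markers Cd79b and Ighm rose, calls lost with any 1 WT pool left out, and Ms4a1 and Pax5 stayed below the filter. Igkc, the kappa light chain, was at 130 and 115 FPKM against 359 and 355 FPKM and missed the threshold in a fit whose spread comes from all 4 groups (adjusted p = 0.151).

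Many chemokine genes rose, but 5 of those called were listed at 0 in both WT-NI pools and so could only rise. Of 51 chemokines and receptors 35 were measured, 22 rose and none fell, with a median of 1.99, and 11 to 14 passed with 1 WT pool left out. Ccl2, the main attractant of monocytes that carry Ccr2, went from 0.672 and 0.376 FPKM to 9.04 and 14 FPKM (4.22 ± 0.30), and Ccl7, which acts on the same receptor, was listed at 0 in both WT-NI pools and at 2.62 and 2.85 FPKM after injury. Cxcl5, a ligand of the neutrophil receptor Cxcr2, was likewise listed at 0 and then at 1.92 and 2.88 FPKM, at least 42.4-fold above the level that 3 reads would give. Ccl6 rose from 1.59 and 1.75 FPKM to 8.26 and 9.86 FPKM (2.37 ± 0.20) and Ccl9 from 0.388 and 0.680 FPKM to 4.89 and 5.24 FPKM (3.06 ± 0.27). The constitutive chemokine Cxcl12 was at 19.1 and 20.3 FPKM against 25.6 and 20.4 FPKM and was not called.

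Of 43 measured genes of interleukin, tumour necrosis factor and colony-stimulating factor signalling, 21 rose and 1, Tnfrsf21, fell (median 1.20). The receptor antagonist Il1rn rose from 0.0126 and 0.0387 FPKM to 2.69 and 4.13 FPKM (4.78 ± 0.40), and the cytokine Lif of the interleukin 6 family from 0.0320 and 0.0328 FPKM to 1.72 and 4.12 FPKM (4.39 ± 0.46). Osmr, a receptor of the same family, rose from 1.07 and 1.15 FPKM to 3.97 and 4.45 FPKM (1.83 ± 0.19). All 3 calls held with any 1 WT pool left out, and over the list 4 to 13 members passed in those fits, the fewest without WT-I/R 3D 2. In the complement list 11 of 20 rose and 1, C8a, fell. From 3 to 10 of the risen complement genes passed with 1 WT pool dropped, the fewest without WT-I/R 3D 2. C3, the central component, went from 3.71 and 4.69 FPKM to 38.7 and 100 FPKM (3.87 ± 0.42), with WT-I/R 3D 2 far above WT-I/R 3D 1, and the inhibitor Serping1 from 23.4 and 27.0 FPKM to 72.9 and 66.6 FPKM (1.47 ± 0.15).

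Genes of antigen presentation and of the interferon response rose more modestly. Of 21 genes of the major histocompatibility complex and its partners 11 rose (median 0.80), among them H2-Aa, a class II chain, from 24.3 and 27.0 FPKM to 53 and 65.7 FPKM (1.20 ± 0.18), and B2m, the light chain of class I, from 370 and 386 FPKM to 714 and 670 FPKM (0.87 ± 0.14). Of 34 interferon-stimulated genes 15 rose and none fell (median 0.62), with Irf1 at 4.15 and 4.24 FPKM against 9.62 and 11.3 FPKM and Isg15 at 8.31 and 10.1 FPKM against 20.4 and 20.6 FPKM. Of 46 proteasome subunits 7 rose, and 5 of these were subunits or activators that interferon induces, Psmb8, Psmb9, Psmb10, Psme1 and Psme2. The constitutive catalytic subunit Psmb5, at 108 and 116 FPKM against 120 and 123 FPKM, was not called. Without WT-I/R 3D 2 none of these 3 lists kept a member past the threshold, and without WT-NI 1 the counts were 0 for antigen presentation, 1 for the interferon list and 0 for the proteasome.

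Stromal and matrix genes rose with a few marked exceptions. Of 16 measured fibroblast, pericyte and smooth muscle markers 12 rose and 1, the smooth muscle myosin Myh11, fell, with a median of 1.97, and 7 to 9 rises passed with 1 WT pool left out. Col3a1, a chain of fibrillar collagen, went from 5.04 and 6.86 FPKM to 50.1 and 65.5 FPKM (3.26 ± 0.25), Col1a2 from 5.94 and 6.83 FPKM to 30.5 and 34.3 FPKM (2.33 ± 0.15), and Acta2, smooth muscle actin, from 12.8 and 12.4 FPKM to 45.1 and 50.7 FPKM (1.92 ± 0.12, adjusted p = 0.00185). The pericyte gene Rgs5 was at 11.7 and 11.8 FPKM against 11.9 and 11.5 FPKM, and renin, Ren1, at 45.8 and 72.5 FPKM against 33.4 and 42.9 FPKM, was not called. Over the whole matrix list 21 of 42 rose and 1, Lama3, fell (median 0.78), and 10 to 15 passed with 1 WT pool left out. Ccn2, connective tissue growth factor, was at 27.1 and 27.3 FPKM against 23.8 and 30.2 FPKM, a log2 fold change of -0.02 ± 0.16.

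Most called genes for proteases and their inhibitors rose, and a few fell. Of 13 metalloproteinases and tissue inhibitors 9 rose and 1 fell, and 3 or 4 of the rises passed with 1 WT pool left out. The gelatinase Mmp2 rose from 2.23 and 2.69 FPKM to 9.51 and 12.0 FPKM (2.08 ± 0.18). Timp3, the matrix-bound inhibitor, fell from 189 and 158 FPKM to 59.9 and 48.2 FPKM (-1.68 ± 0.18, adjusted p = 0.00379), whereas Timp1 rose, and both calls held with any 1 WT pool left out. In the fibrinogen and plasminogen list 8 of 15 genes rose and 1 fell. The activator Plat rose from 7.76 and 8.09 FPKM to 20.7 and 24.8 FPKM (1.50 ± 0.12), while the abundant activator Plau was at 308 and 279 FPKM against 337 and 379 FPKM and was not called. In the list of the transforming growth factor beta family 3 of 24 genes rose (Tgfb1, Gdf15 and Tgif1) and 2 fell (Bmp7 and Acvr1b). These counts, 12.5% and 8.33%, were near the 8.9% and 8.45% of all genes. Tgfb1 rose from 3.86 and 4.46 FPKM to 9.01 and 11.6 FPKM (1.28 ± 0.34, adjusted p = 0.044), a call lost with any 1 WT pool left out, and Bmp7, an epithelial factor of the distal nephron, fell from 20.9 and 21.5 FPKM to 10.4 and 9.72 FPKM (-1.07 ± 0.11), a call kept in each of those fits.

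The list of tubular injury and repair genes, which holds Havcr1, Lcn2, Krt20 and Timp1, had 31 of 36 members higher and none lower, with a median of 2.20, and this list was drawn up for genes known to rise in this setting. S100a6 went from 8.34 and 7.26 FPKM to 144 and 187 FPKM (4.38 ± 0.19, adjusted p = 0.000755), the intermediate filament Vim from 8.51 and 9.15 FPKM to 60.6 and 77.0 FPKM (2.94 ± 0.20), and the annexin Anxa2 from 12.2 and 15.3 FPKM to 67.4 and 81.0 FPKM (2.43 ± 0.18). Sox9, a transcription factor of regenerating tubule cells, rose from 0.387 and 0.224 FPKM to 1.43 and 2.85 FPKM (2.42 ± 0.39). Clu, clusterin, missed the threshold at 144 and 148 FPKM against 218 and 416 FPKM (adjusted p = 0.0554). Between 15 and 26 members passed with 1 WT pool left out, the fewest without WT-I/R 3D 2.

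Cytoskeletal genes rose with them. Of 9 epithelial keratins 6 rose, among them Krt18 from 10.7 and 13.6 FPKM to 42.7 and 50.4 FPKM (1.93 ± 0.24) and Krt19 from 1.72 and 0.923 FPKM to 6.19 and 9.80 FPKM (2.53 ± 0.42), while Krt7, of the collecting duct, was at 20.8 and 24.6 FPKM against 28.3 and 26.3 FPKM and was not called. Of 15 tubulins and cytoplasmic actins 8 rose, led by Tubb5 (21.8 and 20.5 FPKM against 58.6 and 74.4 FPKM) and Tuba1a (8.87 and 9.03 FPKM against 28.6 and 28.2 FPKM), and Actg1 and Tubb4b were not called. In the list of S100 proteins and annexins 9 of 21 rose and 1, Anxa11, fell. With 1 WT pool left out 1 to 3 keratins, 4 tubulins and actins and 5 to 8 S100 proteins and annexins passed, the fewest keratins without WT-I/R 3D 2.

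Genes of cell division rose. Of 45 measured genes of G2 phase and mitosis 42 rose and 1, the kinetochore gene Spc25, fell, with a median of 2.35. Cdk1, the mitotic kinase, was at 0.423 and 0.535 FPKM in WT-NI and at 3.70 and 5.81 FPKM in WT-I/R 3D (3.04 ± 0.24, adjusted p = 0.00224), and its partner Ccnb1 at 0.231 and 0.305 FPKM against 3.99 and 5.07 FPKM (3.65 ± 0.28). Mki67, the proliferation antigen, went from 0.657 and 1.09 FPKM to 6.61 and 9.09 FPKM (3.05 ± 0.31) and the kinase gene Melk from 0.211 and 0.144 FPKM to 2.52 and 3.14 FPKM (3.40 ± 0.30). All of these calls held with any 1 WT pool left out, and over the list 17 to 34 members passed in those fits, the fewest without WT-I/R 3D 2.

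In the list of G1/S transition and DNA replication 20 of 37 rose, with a median of 1.01, and 1 fell. Uhrf1, which brings the maintenance methyltransferase to replicated DNA, rose from 1.13 and 1.06 FPKM to 5.39 and 9.64 FPKM (2.62 ± 0.31), Tk1, thymidine kinase, from 2.90 and 2.47 FPKM to 5.79 and 7.15 FPKM (1.23 ± 0.18), and the helicase subunit Mcm6 from 6.34 and 6.03 FPKM to 10.2 and 12.1 FPKM (0.84 ± 0.13). Ccnd1, cyclin D1, which drives the exit from G1, went the other way, from 58.8 and 61.3 FPKM to 24.9 and 31.0 FPKM (-1.11 ± 0.14, adjusted p = 0.00512), a call kept with any 1 WT pool left out. Only 1 member of the list rose without WT-NI 1 or without WT-I/R 3D 2, 2 without WT-NI 2 and 9 without WT-I/R 3D 1. The difference between the mitosis and S phase lists was not tested.

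Of 23 targets of p53 5 rose, 21.7% against 8.9% of all genes, and none fell, with a median of 0.36, and no member rose without WT-I/R 3D 2. The cell cycle inhibitor Cdkn1a rose from 2.47 and 2.47 FPKM to 9.23 and 12.7 FPKM (2.09 ± 0.29), and Gtse1 and Psrc1, which also take part in mitosis, were among the other 4. Ccng1, at 52.7 and 52.9 FPKM against 51.4 and 53 FPKM, was not called. Of the immediate early and AP-1 list 7 of 17 rose, among them Atf3 from 0.872 and 1.03 FPKM to 3.88 and 7.21 FPKM (2.36 ± 0.29) and Myc from 2.43 and 2.21 FPKM to 6.48 and 10.3 FPKM (1.77 ± 0.24), with 1 to 4 left when 1 WT pool was dropped. Fos, named after its values were seen, was at 1.24 and 5.07 FPKM against 1.33 and 4.02 FPKM, so the pools differed more within each group than between the groups.

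Of 32 cell death genes 9 rose and none fell, with a median of 0.35. The risen genes were Casp1, Casp4, Casp12, Pycard, Gsdmd, Ripk3, Mlkl, Birc2 and Birc3. Gsdmd, the pore former of pyroptosis, rose from 2.96 and 3.30 FPKM to 9.71 and 10.7 FPKM (1.67 ± 0.18), a call held with any 1 WT pool left out, and Ripk3, a kinase of necroptosis, from 0.789 and 0.529 FPKM to 2.88 and 3.24 FPKM (2.08 ± 0.26). Bax, a pore former of apoptosis, missed the threshold at 18.9 and 20.2 FPKM against 34.2 and 35 FPKM (adjusted p = 0.0567), and passed it with limma voom on recovered reads (0.82, adjusted p = 0.0200). Bcl2, an inhibitor of apoptosis, was at 2.35 and 1.98 FPKM against 1.95 and 1.88 FPKM and was not called. Macrophages express several of the risen genes, and the part of the macrophage markers in these values was not tested. From 1 to 4 members passed with 1 WT pool left out.

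Transcripts of several metabolic routes that are prominent in the proximal tubule fell. In mitochondrial fatty acid oxidation 22 of 26 genes fell and none rose, with a median of -0.84. Ppara, the nuclear receptor that switches these genes on, was at 26.2 and 25.8 FPKM in WT-NI and at 5.53 and 5.46 FPKM in WT-I/R 3D (-2.22 ± 0.16, adjusted p = 0.0019). Cpt1a, which admits fatty acids to mitochondria, fell from 82.6 and 80.1 FPKM to 31.5 and 34.9 FPKM (-1.29 ± 0.14). The calls of Ppara and Cpt1a held with any 1 WT pool left out, and 3 to 8 members of the list passed in these fits.

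In the peroxisome list 24 of 57 fell and none rose (median -0.53), among them Ehhadh, a bifunctional enzyme of peroxisomal oxidation, from 307 and 249 FPKM to 103 and 80.2 FPKM (-1.60 ± 0.20). In the citrate cycle and pyruvate dehydrogenase list 19 of 30 fell and none rose (median -0.66), with Ogdh at 161 and 163 FPKM against 82.8 and 82.6 FPKM (-0.97 ± 0.11) and Pcx, pyruvate carboxylase, at 161 and 161 FPKM against 64.2 and 51.2 FPKM (-1.49 ± 0.20). In gluconeogenesis and fructose use 10 of 16 fell and none rose (median -1.14), with Fbp1 at 859 and 829 FPKM against 345 and 302 FPKM (-1.39 ± 0.20). Of 31 genes of branched-chain amino acid breakdown 17 fell and 1, Bcat1, rose, and Mmut, methylmalonyl-CoA mutase, was at 79.9 and 80.2 FPKM against 38 and 30.9 FPKM (-1.22 ± 0.17). Without WT-I/R 3D 2 the falls left in these 4 lists were 3, 0, 0 and 1, and without WT-NI 1 they were 2, 0, 0 and 2.

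Of 93 nuclear-encoded subunits of the respiratory chain 9 fell and none rose, with a median of 0.03, against a background of 8.45% of all genes lower. Those that fell were among others Sdha, which is also an enzyme of the citrate cycle (270 and 277 FPKM against 138 and 135 FPKM, -1.0 ± 0.12), Ndufs1 (38.1 and 38.9 FPKM against 22.6 and 19.8 FPKM) and Atp5b (829 and 873 FPKM against 516 and 474 FPKM). The small subunit gene Cox8a, at 1041 and 1155 FPKM against 1219 and 1029 FPKM, overlapped between the groups. Of the 13 genes of mitochondrial DNA 1 fell, mt-Nd4l, whose WT-NI pools were far apart at 127 and 546 FPKM (40.2 and 22.5 FPKM after injury), while mt-Cytb, at 15370 and 14956 FPKM against 12352 and 9727 FPKM, was not called. All 13 had a log2 fold change below 0, and the median was -0.56. Both injured pools were below both non-injured pools for 10 of the 13, against 37.6% of all genes tested. In glycolysis 3 of 21 genes rose (Hk2, Hk3 and Slc16a3) and 3 fell (Pfkm, Pgam1 and Pfkfb3), with a median of -0.11. Each count was 14.3% of the list, against 8.9% of all genes higher and 8.45% lower. No fall passed with a WT pool left out, and 1 rise passed only without WT-I/R 3D 1. Hk2, the inducible hexokinase, rose from 0.117 and 0.167 FPKM to 1.04 and 1.93 FPKM (2.66 ± 0.47). Under the TPM scaling the medians of the respiratory chain and of glycolysis became 0.21 and 0.07, and scaled by read totals 0.28 and 0.13.

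Transcripts of many carriers of organic ions, amino acids and minerals fell. Of 35 organic anion and cation transporters 18 fell and none rose (median -0.76). Slc22a6, the basolateral organic anion carrier of drug secretion, went from 188 and 169 FPKM to 68.1 and 59.5 FPKM (-1.48 ± 0.24), the dicarboxylate carrier Slc13a3 from 249 and 233 FPKM to 86.0 and 88.0 FPKM (-1.47 ± 0.14), and the efflux pump Abcc2 from 63.0 and 59.1 FPKM to 26.4 and 26.7 FPKM (-1.20 ± 0.13). Of 26 amino acid transporters 11 fell and Slc7a13 rose. In the list of vitamin D, Klotho and phosphate handling 11 of 18 fell and none rose (median -1.04). Kl, Klotho, the co-receptor for the phosphate hormone of bone, went from 135 and 132 FPKM to 38.5 and 38.8 FPKM (-1.79 ± 0.25, adjusted p = 0.00707), and the vitamin D receptor Vdr from 60.5 and 54.1 FPKM to 25.3 and 30.2 FPKM (-1.05 ± 0.14). With 1 WT pool left out, 3 to 6 falls remained among the organic ion transporters, 1 to 3 among the amino acid transporters and 0 to 3 in the Klotho list.

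In a list of transcription factors of nephron identity and repair, 9 of 34 fell and 4 rose. These counts were 26.5% and 11.8% of the list, against 8.45% of all genes lower and 8.9% higher. Hnf4a, the regulator of proximal tubule identity, fell from 203 and 191 FPKM to 104 and 111 FPKM (-0.87 ± 0.16, adjusted p = 0.014), and Maf from 49.6 and 43.9 FPKM to 25.5 and 23.7 FPKM (-0.92 ± 0.16). The factors that rose were Sox9, Runx1, Klf5 and Elf3. In the 4 fits without a WT pool at most 2 of these factors rose and at most 2 fell.

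Of 35 antioxidant and glutathione genes 8 fell, 22.9% against 8.45% of all genes, and 2 rose (median -0.26). Hmox1, the inducible heme oxygenase, rose from 12.6 and 12.5 FPKM to 43.7 and 42.4 FPKM (1.77 ± 0.23) and Prdx4 from 8.79 and 7.86 FPKM to 15.2 and 17.3 FPKM. Catalase, Cat, fell from 435 and 418 FPKM to 211 and 194 FPKM (-1.07 ± 0.16) and the mitochondrial superoxide dismutase Sod2 from 40.2 and 41.5 FPKM to 25.9 and 22.0 FPKM (-0.77 ± 0.15), while Sod1, at 104 and 111 FPKM against 106 and 92.3 FPKM, was not called. Of 21 genes in the list of hypoxia-inducible factors and their targets none rose and 3 fell, 14.3% against 8.45% of all genes. The fallen genes were Epas1, which encodes a subunit of such a factor, Pdk1 and Pfkfb3, and Vegfa was at 80.4 and 82.6 FPKM against 72.1 and 52.2 FPKM. Of 20 heat shock proteins 2 rose, the small heat shock genes Hspb1 (11.5 and 16.3 FPKM against 49.2 and 73.2 FPKM) and Cryab, and 2 fell, the mitochondrial chaperones Hspd1 and Hspa9. These counts, 10% each way, were near the 8.9% higher and 8.45% lower of all genes. Without WT-I/R 3D 2 no gene of these 3 lists passed. In the list of TET and DNMT genes only Uhrf1 was called, and Tet2 (4.91 and 4.17 FPKM against 6.03 and 4.56 FPKM) and Tet3 (4.26 and 3.91 FPKM against 3.41 and 3.48 FPKM) were not.

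Smaller lists held single genes of interest. In NAD synthesis 5 of 14 genes fell and 1 rose (median -0.63). Nampt, the rate-limiting enzyme of the salvage route, fell from 40.5 and 42.2 FPKM to 22.3 and 23.5 FPKM (-0.85 ± 0.18), and Afmid, Kmo and Kynu, enzymes of the route from tryptophan, fell with it, while Nnmt, which uses up nicotinamide, rose from 0.662 and 0.272 FPKM to 3.75 and 2.48 FPKM (2.57 ± 0.41). Without any 1 WT pool at most 1 gene of the list passed in either direction. Of 11 measured genes in the list of epidermal growth factor receptors, their ligands and regulators 3 fell, Egf, Erbb3 and Errfi1, and none rose. Most of these calls were lost with a WT pool left out. Of 33 genes of the unfolded protein and ATF4 responses 6 rose and 2 fell (median 0.16), and most of these calls were lost with a WT pool left out. The counts were 18.2% and 6.06% of the list, against 8.9% of all genes higher and 8.45% lower. The risen ones included Mthfd2 (1.62 and 1.54 FPKM against 3.47 and 3.95 FPKM), Phgdh and Asns of one-carbon, serine and asparagine metabolism. Herpud1 was among those that fell (-0.97), and the abundant Calr and Pdia3 were not called. Of 8 thin limb markers 2 rose, Akr1b3 and Bst1, and of 6 measured dendritic cell markers 2 rose, Clec10a and Itgax.

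Of 83 measured genes of cytosolic ribosomal proteins 52 rose and none fell, with a median of 0.83 and a range from -0.34 to 1.60, and 80 had both injured pools above both non-injured pools, against 34.5% of all genes tested. Rpl39 went from 71.2 and 79.4 FPKM to 162 and 156 FPKM (1.08 ± 0.11), Rpl12 from 36.3 and 40.6 FPKM to 87.7 and 89.3 FPKM (1.20 ± 0.13) and Rplp0 from 423 and 439 FPKM to 704 and 758 FPKM (0.76 ± 0.15). Only 2 to 4 of these calls were left with 1 WT pool dropped, the fewest without WT-NI 1 or WT-I/R 3D 2, while the median stayed between 0.76 and 0.86. Of 77 genes of mitochondrial ribosomal proteins 4 rose (5.19% against 8.9% of all genes) and none fell, with a median of 0.09, and no test compared the lists. Ribosomal protein genes have many near-identical pseudogene copies, and how shared reads were assigned was not given in the sources used here.

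**Figure D4:**
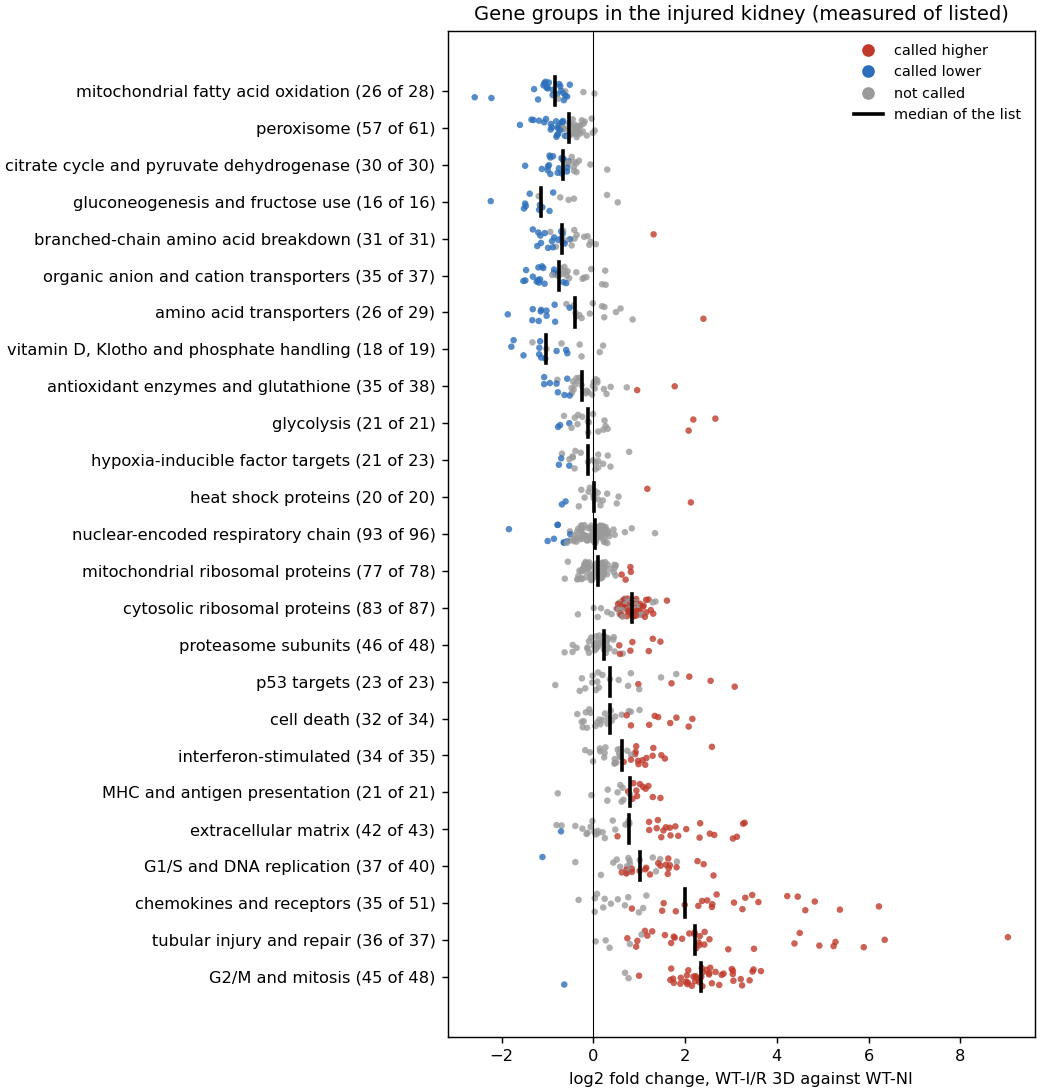
Log2 fold change of each measured gene in WT-I/R 3D against WT-NI for 25 gene groups, with the number measured of the number listed beside each name (red, called higher; blue, called lower; grey, not called; black bar, median). Medians run from -1.14 in gluconeogenesis to 2.35 in mitosis, the median of the nuclear-encoded respiratory chain is 0.03, and that of the cytosolic ribosomal proteins is 0.83.

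The 2 injured pools were not alike, and they differed in a common direction. Of the 1393 risen genes 993 were higher in the second injured pool than in the first. All 45 mitosis genes were higher in WT-I/R 3D 2, as were 32 of 36 injury genes, 35 of 37 genes of the S phase list and 37 of 43 interleukin genes. The medians relative to the WT-NI mean were 1.89 and 2.38 for the injury list in the first and second injured pool and 2.10 and 2.52 for mitosis. In the other direction, WT-I/R 3D 1 was the higher pool for all 14 intercalated cell markers, for 26 of 30 general proximal tubule markers, for 14 of 16 endothelial markers and for 87 of 93 respiratory chain subunits. Ribosomal proteins hardly differed between these pools, with medians of 0.84 and 0.82, nor did markers of the distal convoluted tubule, at -1.11 and -1.09. The non-injured pools also differed in some of these lists. For mitosis the median log2 of the second pool over the first was 0.26 among non-injured pools and 0.40 among injured ones. For respiratory chain subunits these values were 0.13 and -0.18. For the other lists with counts here the non-injured value was smaller in size than the injured one, between -0.05 and 0.09. The share of all tested genes higher in WT-I/R 3D 2 was not counted. With 2 pools these orders are descriptions, and the part of the lower share of mitochondrial reads in WT-I/R 3D 2 was not tested.

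**Figure D5:**
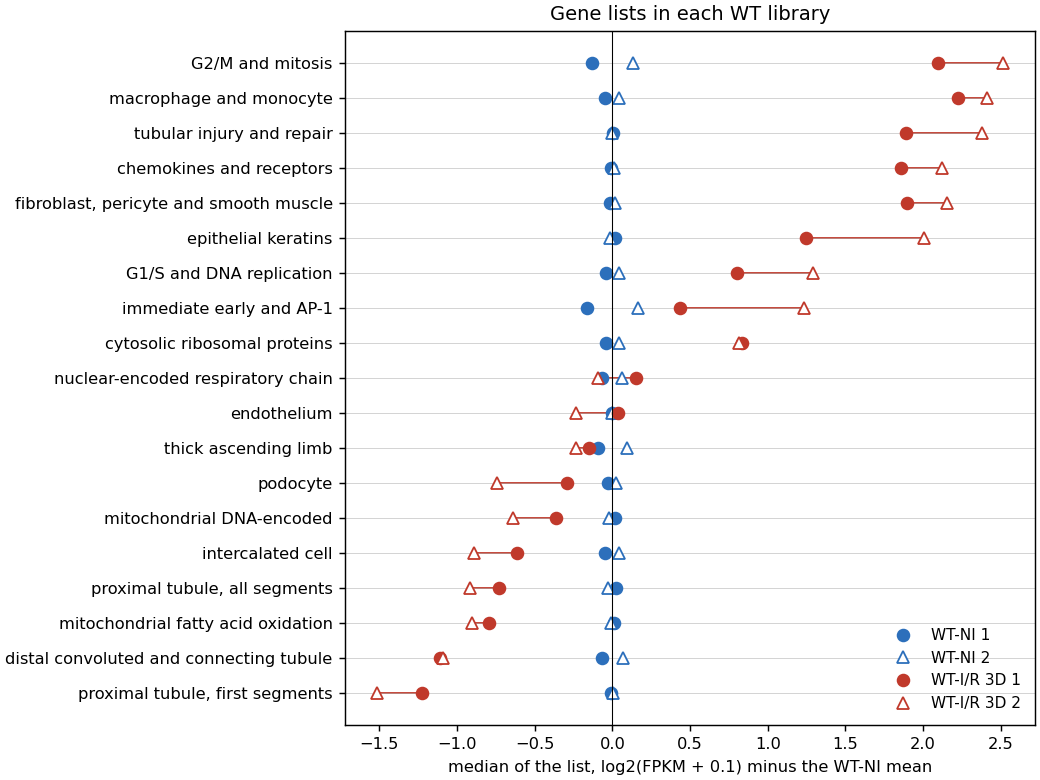
Median of each gene list in each WT library, in log2(FPKM + 0.1) relative to the mean of the WT-NI pools (blue, non-injured; red, injured; circles, first pool; triangles, second pool). The second injured pool lies farther from the non-injured pools than the first in mitosis (2.52 and 2.10) and injury genes (2.38 and 1.89) and, on the side of losses, in the first proximal segments (-1.52 and -1.22).

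Long non-coding RNAs made up 52 of the 1393 rises and 30 of the 1322 falls. How many of them were tested was not counted, so no share can be set beside the 8.9% and 8.45% of all genes. The non-coding genes with the largest changes by the fixed rule were Mir145a, Mir5620, Sprr2g and Trbj2-6, all listed at 0 in both WT-NI pools. Sprr2g, annotated as a polymorphic pseudogene of the Sprr family, was at 2.71 and 8.34 FPKM after injury. The others are 70 bases long or shorter, so that their 4.06 and 7.75 FPKM (Mir145a) or 2.03 and 8.72 FPKM (Mir5620) stand on few reads of a library made from polyadenylated RNA, and no fold is given for them.

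The same contrast in the libraries labelled KO shares no library with this one, but both take the spread of each gene from all 8 libraries. Calls in the 2 contrasts are therefore not independent. In the KO contrast 2808 genes were higher (17.9% of those tested) and 3043 lower (19.4%). Of the WT rises 92.7% were also called higher in KO, which is 46% of the KO rises, and of the WT falls 94.3% were also called lower, which is 40.9% of the KO falls. Median log2 fold changes of the WT rises were 1.38 in WT and 1.74 in KO, and those of the WT falls were -0.83 and -1.20, although the WT values were used to choose these genes. A test of the difference between the responses called 0 of 15650 genes with limma, with 1567 at an unadjusted p under 0.05 and a smallest adjusted p of 0.390, and limma voom on recovered reads also called 0. Without KO-NI 2, which leaves the library KO-NI 1 alone in its group, 232 genes were called, and 0 without any 1 of the other libraries.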

How the data were processed

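Poly(A) RNA from whole kidney was sequenced in 8 pooled libraries, 2 for each of 4 groups. The deposited table gives FPKM per gene, computed by the authors. Reads were aligned with HISAT2 2.0.5 to mm10 per the submitters' processing notes, and the counting program was not given in the sources used here. The study's methods state thresholds for changed genes but name no test. Multiplied by gene length and by a divisor fitted per library, all values fell on whole reads within a tolerance of 0.001, which gave the depth of 13961281 to 18480858 reads per library and the limit that 3 reads set on a gene listed at 0. These counts cover counting error only. The divisor followed a median-of-ratios size factor (ratio 0.995 to 1.00) and not the read total, of which it was 0.886 and 0.881 in WT-NI and 1.04 and 1.05 in WT-I/R 3D.

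Genes reaching 1 FPKM in at least 2 of the 8 libraries were kept. Values were analysed as log2(FPKM + 0.1) with limma 3.58.1 (R 4.3.3), with 4 group means fitted to all 8 libraries, moderated variances with a trend and Benjamini-Hochberg adjustment over all genes tested. A gene was called at an adjusted p below 0.05 and an absolute log2 fold change above 0.5. Values in parentheses after FPKM levels are log2 fold changes ± SE. They are on the log2(FPKM + 0.1) scale, which understates changes of low genes. The scripts were tested on simulated data. Alternatives were another pseudocount, no filter, 2 scalings, only the WT libraries, no variance trend, a replicate block, limma voom on recovered reads, no fold threshold, each library left out and, added after the data were seen, scaling by read totals. Figures were drawn with Python 3.11.15 and matplotlib 3.10.9.

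Genes were named by a rule. It took the called protein-coding genes without overlap between groups and with a mean of 5 FPKM or more in the higher group (predicted genes left out), 10 at each end of the log2 fold changes, and then the 8 largest gains and 8 largest losses of FPKM. To these were added up to 4 called members of each list, by adjusted p, and up to 2 uncalled ones, by mean level, the 4 called non-coding genes with the largest change, and genes the study names. Single members counted in a list but outside this rule were named after their values were seen. The members and lists were chosen with earlier results of these data known. Promoter windows came from RefSeq (GRCm38.p6), matched by symbol for 10549 of 15650 genes. Some genes that this rule takes are not reported here.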

Additional observations from a re-analysis of the deposited data

How the results depend on the processing

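The 1393 rises and 1322 falls became 1404 and 1292 with a pseudocount of 1, 1179 and 928 of 31476 genes without the filter, 1395 and 1149 without the variance trend, 2027 and 1955 with only the 4 WT libraries, 1421 and 1434 without the fold threshold, and 1969 and 1718 of 18252 genes with limma voom on recovered reads. They were 1381 and 1325 with median-of-ratios scaling, but the deposited values already carried such a factor, so this setting could move little. With TPM scaling 1811 rose and 717 fell, and with read totals 2365 and 623, of which 1393 and 623 were also called as deposited. With each of the 8 libraries left out in turn, rises ranged from 205 (without WT-I/R 3D 2) to 2050 (without KO-NI 1) and falls from 76 (without WT-NI 1) to 1823 (without KO-NI 2). The difference between the KO and WT responses gave 0 calls in most settings, 4 without the variance trend, and 0 to 232 with 1 library left out, with 232 only without KO-NI 2. The cause was not tested. With the replicate number as a block the counts were 1517 higher and 1483 lower, of which 1334 and 1280 were also called without it, and 0 for the difference of responses. Deviations of same-numbered pools correlated at 0.03 between WT-NI and WT-I/R 3D over 15650 genes. Over all pairs of groups the values were 0.03 to 0.17, the highest between KO-NI and KO-I/R 3D. Whether same-numbered pools shared a batch was not tested. No named gene that was called changed sign in any setting, and no list median above 0.5 in size did. Medians nearer to 0 moved with the scaling: under TPM those of endothelium, glycolysis, hypoxia targets and the transforming growth factor beta family were 0.08, 0.07, 0.07 and 0.13, and with read totals 0.14, 0.13, 0.13 and 0.19. Genes under 1 FPKM rest on few reads.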

Other observations

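Some gene groups outside the lists above were looked at after their values were seen, so their counts are descriptions. Of 18 measured genes of the circadian clock and its outputs, 10 fell and 2 rose in WT kidney. Dbp, an output factor driven by the clock, was at 73.5 and 80.1 FPKM in the non-injured pools and at 24.3 and 27.5 FPKM in the injured ones (-1.57 ± 0.38), and Per2, a repressor in the clock loop, went from 14.6 and 18.6 FPKM to 9.74 and 6.53 FPKM (-1.04 ± 0.22). Nr1d1, a nuclear receptor that represses Arntl, fell from 39.9 and 40.3 FPKM to 23.8 and 21.8 FPKM (-0.82 ± 0.18), and Arntl, an activator of the loop, rose from 0.231 and 0.209 FPKM to 1.12 and 0.924 FPKM. The partner of Arntl, Clock, was at 4.30 and 3.47 FPKM against 3.61 and 3.17 FPKM and was not called. In the libraries labelled KO 11 of these genes were lower and 1 was higher. The hour at which kidneys were taken was not given in the sources used here, so an hour that differed between groups cannot be told apart from injury. These calls held in at most 1 of the 4 fits that leave out a WT pool.

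Of 14 measured host genes of small nucleolar RNAs, 6 rose and none fell, among them Gas5 from 9.53 and 10.7 FPKM to 19.5 and 19.6 FPKM and Snhg8 from 10.4 and 10.7 FPKM to 23.4 and 20.1 FPKM. All 6 calls were lost with any 1 WT pool left out. Of 12 measured cathepsins 4 rose. Ctss, a cathepsin of antigen-presenting cells, went from 13.5 and 14.4 FPKM to 53.4 and 62.3 FPKM (2.04 ± 0.17), and Ctsk from 3.68 and 3.63 FPKM to 8.49 and 10.3 FPKM (1.33 ± 0.20). The broadly expressed Ctsl, at 86.7 and 87.9 FPKM against 77.8 and 85.2 FPKM, was not called.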
